A study of Mus musculus with 3 samples.

Results

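The genes described here are Csf1, which encodes the cytokine colony stimulating factor 1, and the 4 receptor genes Csf1r, Csf2ra, Csf2rb and Csf3r. These are 5 of the 31053 genes listed in each of 3 single-cell RNA-seq runs, and their rows were taken by gene symbol. No threshold on a measured value was used, but the genes were chosen with earlier results of these data known. The cells were tdTomato+ myeloid cells sorted from both hippocampi of mice with the genotype Cx3cr1CreERT2/+ ; Rosa26tdTomato/+; NestinTK-eGFP/+. Cx3cr1CreERT2 places a tamoxifen-inducible Cre at Cx3cr1, a gene of microglia and related macrophages, so the reporter also marks cells other than microglia. Recombination was induced in all animals by injecting tamoxifen (100 mg/kg) over 4 consecutive days, and no untreated or Cre-negative group was analysed here. The series holds 12 animals (6 male, 6 female), whose ages are not given in the sources used here and which are not assigned to runs. The 3 runs form a single group, so every comparison is between cells of the same runs, with the run as replicate. The labels do not say if runs hold separate animals, so p-values cannot be taken to cover the spread between animals. With the run as a block, they measure how far the differences within runs vary from run to run. The spread of each gene is drawn toward an estimate shared by all genes, so small p-values from 3 runs rest largely on that estimate.

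The CSF-1 receptor is a tyrosine kinase that binds CSF-1 and interleukin-34, and microglia depend on it for survival and proliferation. Csf2ra encodes the ligand-specific alpha chain of the GM-CSF receptor and Csf2rb the beta chain that signals with it and is shared with the interleukin-3 and interleukin-5 receptors. Csf3r encodes the G-CSF receptor, best known for its role in neutrophil production. CSF-1 itself is made by several cell types of the brain, microglia included.

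On GRCm38, Csf1 (ENSMUSG00000014599) spans chr3:107741048-107760469 on the minus strand and Csf2ra (ENSMUSG00000059326) chr19:61223957-61228429 on the minus strand. Csf1r is ENSMUSG00000024621. Csf2rb (ENSMUSG00000071713) lies at chr15:78325752-78353847 on the plus strand and Csf3r (ENSMUSG00000028859) at chr4:126024550-126044440 on the plus strand. The neighbouring Csf2rb2 (ENSMUSG00000071714, chr15:78282507-78305721, minus strand) is a close copy of Csf2rb. Of the 50-base windows of the Csf2rb transcript (4900 bases), 18.4% also occurred in the Csf2rb2 transcript (4740 bases), and the longest shared stretch was 242 bases. None of the windows in the last 500 bases was shared. How reads in shared stretches were counted is not given in the sources used here, so Csf2rb levels carry that uncertainty.

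The Csf1 promoter is shown because Csf1 was the member whose level differed most between microglial populations. The RefSeq sequence covers the 250 bases before the start of the gene (GRCm38.p6, chr3:107760470-107760719, minus strand, read 5′ to 3′), and the capitals mark its match to a 10-letter kappaB motif.
Csf1: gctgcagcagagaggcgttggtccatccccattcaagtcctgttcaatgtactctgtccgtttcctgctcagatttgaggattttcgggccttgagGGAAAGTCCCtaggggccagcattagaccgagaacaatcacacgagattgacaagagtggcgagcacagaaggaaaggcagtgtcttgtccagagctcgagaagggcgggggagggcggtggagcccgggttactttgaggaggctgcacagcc
The motif, GGG and TTCC with any 3 bases between them, was searched on both strands and matched once, on the antisense strand, 154 to 145 bases before the start. It was found in 4.65% of 32851 promoter windows of the same length, and it was chosen after this sequence had been seen. The Csf3r promoter also held 1 match and that of Csf2ra 0. The 9-letter form GGGNNNTCC (15.2% of windows), the AP-1 motif TGANTCA (6.75%) and the PU.1 core GAGGAA (23.3%) had 0 matches here. A match is a description of these letters, not of a bound site.

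A cell was kept if it had 1000 UMIs or more (unique molecular identifiers, which count captured transcripts), 500 genes or more and no more than 10% of UMIs from mitochondrial genes, leaving 6993, 6720 and 6078 cells with a median of 4425, 3438 and 3696 UMIs in runs 1, 2 and 3. Any pair of runs shared 7 or 8 barcodes. Marker rules that use none of the 5 genes assigned 18947 of 19791 cells to reference microglia. The other tested populations were microglia with disease-associated markers such as Lpl and Spp1 (99 cells), with high Ccl3 and Ccl4 (98 cells, called chemokine-gated), with interferon-response genes (82 cells) or with cell cycle genes (63 cells), and 126 border macrophages with Mrc1 and Pf4. P2ry12 was at 4144 ± 759 CPM (a gene's UMIs per 1000000 UMIs of the summed cells, mean ± SD over 3 runs) in reference microglia and at 148 ± 26.8 CPM in border macrophages, and Pf4 at 0.870 ± 0.462 and 2809 ± 278 CPM. Both genes are used by the gates, so these differences follow in part from the marker rules and are no separate check of the labels. Populations with under 10 cells in a run (MHC class II cells, monocytes, T/NK cells, choroid plexus cells) are described by their values only. A further 117 microglia with immediate early genes came almost entirely from run 3 (113 cells) and were not tested.

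The ligand gene Csf1 was higher in chemokine-gated and disease-associated microglia than in reference microglia in all 3 runs, and the difference was the largest of any member. In reference microglia its summed level was 10.3, 11.5 and 10.5 CPM in runs 1, 2 and 3 (10.8 ± 0.670 CPM). In chemokine-gated microglia it was 219, 320 and 132 CPM (224 ± 94.2 CPM). In disease-associated microglia it was 113, 108 and 108 CPM (110 ± 2.94 CPM), so the chemokine-gated runs lay higher and wider apart. No run of either population overlapped the reference runs. With a stricter cell filter (2000 UMIs, 5% mitochondrial) the chemokine-gated runs spanned 73.7 to 330 CPM and the disease-associated runs 85.0 to 185 CPM, and overlapped each other. Summed endothelial markers were at 782, 886 and 828 CPM in disease-associated and 625, 793 and 607 CPM in reference microglia, higher in each run, and at 519, 811 and 649 CPM in chemokine-gated cells. Summed oligodendrocyte and astrocyte markers were lower in each run in both populations. The endothelial sum was also 4723, 5311 and 4706 CPM in choroid plexus cells of runs 1, 2 and 3, so it does not mark endothelial RNA alone. The part of these markers in the Csf1 differences was not tested.

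In edgeR's quasi-likelihood test the Csf1 difference from reference microglia was 4.46 ± 0.35 on the log2 scale (SE, adjusted p = 1.64e-14) for chemokine-gated cells, where 13.9% of all genes tested were called in either direction, 8.79% as higher and 5.06% as lower. For disease-associated cells it was 3.46 ± 0.38 (adjusted p = 5.33e-10), where 24.1% of genes were called and 13.3% as higher. Both calls held in every alternative in which Csf1 could be tested, which leaves out the thinned counts. Scaling by library totals alone moved the median of all genes to -0.17 in chemokine-gated, -0.13 in disease-associated and -0.40 in border macrophage comparisons, and the share of called genes that were higher from 63.5% to 38.8%, from 54.9% to 40.2% and from 53.8% to 27.5%. In interferon-gated microglia Csf1 was at 64.4, 23.7 and 35.1 CPM, again above every reference run, and the difference was 2.23 ± 0.58 (adjusted p = 0.0118, where 3.71% of genes were called, 3.42% as higher and 0.290% as lower). This call rests on 21 UMIs and was lost without run 1 (adjusted p = 0.666), with DESeq2 (0.330) and without the replicate block (0.0925). In cycling microglia Csf1 was at 10.3, 13.2 and 0 CPM from 4 UMIs in all, and no difference was detectable (log2 -0.31 ± 0.99, adjusted p = 0.850).

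**Figure D1:**
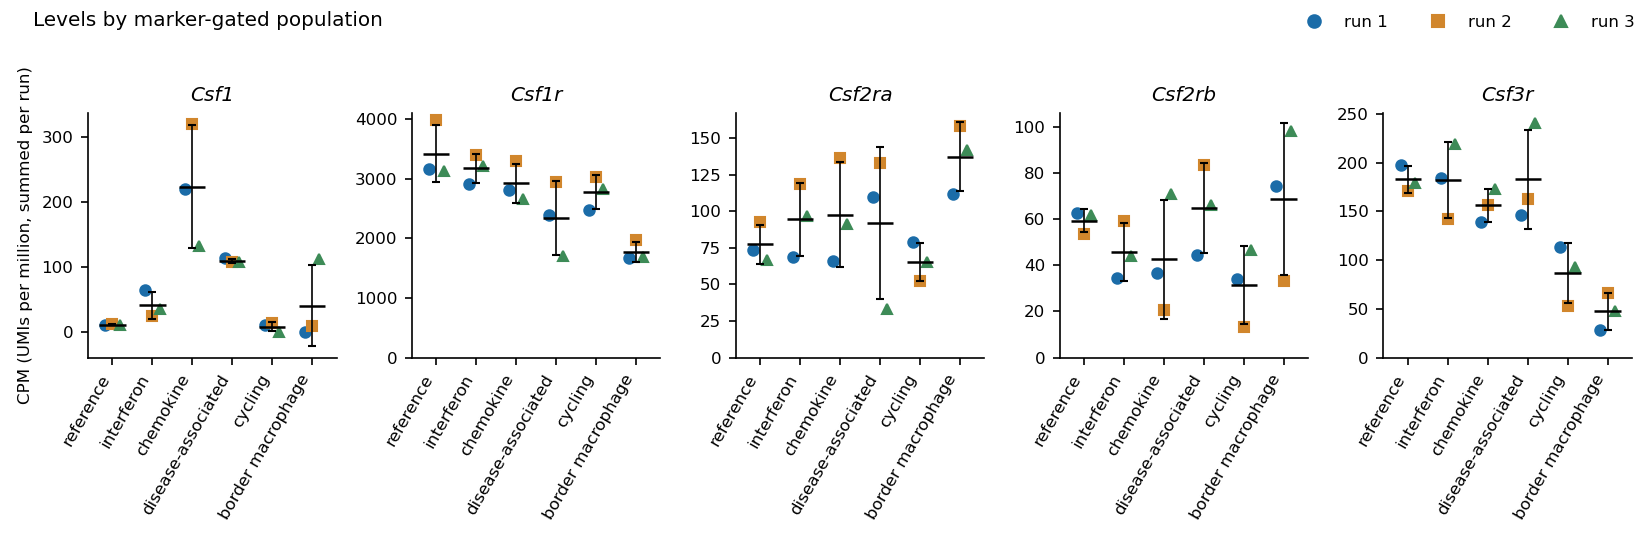
Levels of the 5 genes in 6 marker-gated populations, in CPM of the summed UMIs of each run (symbols), with the mean and SD over 3 runs (black). Csf1 is highest in chemokine-gated microglia (132 to 320 CPM), Csf1r is lowest in border macrophages (1670 to 1973 CPM) and Csf3r is lowest in cycling microglia and border macrophages.

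Border macrophages gave no stable Csf1 value. Their level was 0, 8.33 and 113 CPM in runs 1, 2 and 3, which overlaps the reference runs. The fit gave a log2 difference of 2.58 ± 0.50 (adjusted p = 2.42e-05 in edgeR's quasi-likelihood test, 36.7% of genes called, 19.7% as higher). Of the 31 UMIs in run 3, 29 came from 1 cell, which also held 39 Csf1r UMIs, 212 Ccl3 and Ccl4 UMIs, 7 of the 8 border macrophage markers and 11 UMIs of P2ry12, Tmem119 and Siglech. Without that cell the difference was -0.70 (adjusted p = 0.564), and without run 3 it was -1.49 (adjusted p = 0.453). Only 3 of 126 border macrophages (2.38%) had a Csf1 UMI. The 39 MHC class II cells held 3 Csf1 UMIs, and no Csf1 UMI was seen in 7 monocytes or 33 choroid plexus cells.

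Most Csf1 transcripts nevertheless came from reference microglia, because these were 95.7 ± 1.34% of cells. They held 826 of 1098 Csf1 UMIs (75.2%), while chemokine-gated microglia held 9.38% and disease-associated microglia 6.65%. Of the Csf1-positive microglia, 84.8%, 88.0% and 85.6% were reference cells in runs 1, 2 and 3. The share of cells with a Csf1 UMI was 3.48 ± 0.274% in reference microglia, 37.9 ± 8.49% in chemokine-gated and 42.0 ± 7.31% in disease-associated cells. These last cells were deeper (run medians of 5541 to 6717 UMIs against 3426 to 4393 in reference microglia). With every cell thinned to 2000 UMIs the shares were 1.95 ± 0.0240%, 24.2 ± 14.5% and 16.7 ± 2.20%.

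Csf1 was concentrated in few cells more than depth alone would give. If each microglial cell had drawn Csf1 in proportion to its total UMIs (a Poisson expectation), 393, 334 and 280 cells would have held a UMI in runs 1, 2 and 3, and 297, 241 and 229 did. Cells with at least 2 Csf1 UMIs numbered 68, 52 and 34, against 13.1, 9.70 and 7.48 expected. That is 5.20, 5.36 and 4.55 times the expectation, and these cells held 43.6%, 45.1% and 32.3% of all microglial Csf1 UMIs. For the other members the same ratio for cells with at least 2 UMIs lay near 1: it was 0.998 to 1.00 for Csf1r, 0.975 to 1.00 for Csf3r, 1.11 to 1.23 for Csf2ra and 1.17 to 1.28 for Csf2rb.

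Detection of Csf1 was more frequent along both marker scales over all microglia. The scales were also described below the levels that the gates require. With no Ccl3 or Ccl4 UMI 3.23 ± 0.448% of cells had a Csf1 UMI, with 1 to 2 such UMIs 9.33 ± 3.50%, with 3 to 9 33.1 ± 18.6% and with 10 or more 40.3 ± 10.0%. With 0, 1, 2 and 3 or more disease-associated markers the shares were 3.05 ± 0.312%, 7.09 ± 0.103%, 24.9 ± 6.18% and 40.4 ± 6.81%. Thinned to 2000 UMIs, the shares went from 1.84% to 30.2% along the chemokine scale and from 1.87% to 21.4% along the marker scale, the last from 16 cells.

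The scales did not stand in for each other. Cells with at least 3 Ccl3 and Ccl4 UMIs but under 2 disease-associated markers were Csf1-positive in 43.6%, 33.8% and 13.3% in runs 1, 2 and 3. Cells with at least 2 markers but fewer chemokine UMIs were positive in 29.0%, 26.5% and 14.0%. Cells with both were positive in 73.3% (11 of 15), 55.6% (10 of 18) and 11 of 22 cells, above either kind alone in every run, and cells with neither in 3.39%, 2.81% and 3.29%. Median depth also differed: in run 1 it was 4381 UMIs for cells with neither and 7221 for cells with both, and its part in the order was not tested.

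**Figure D2:**
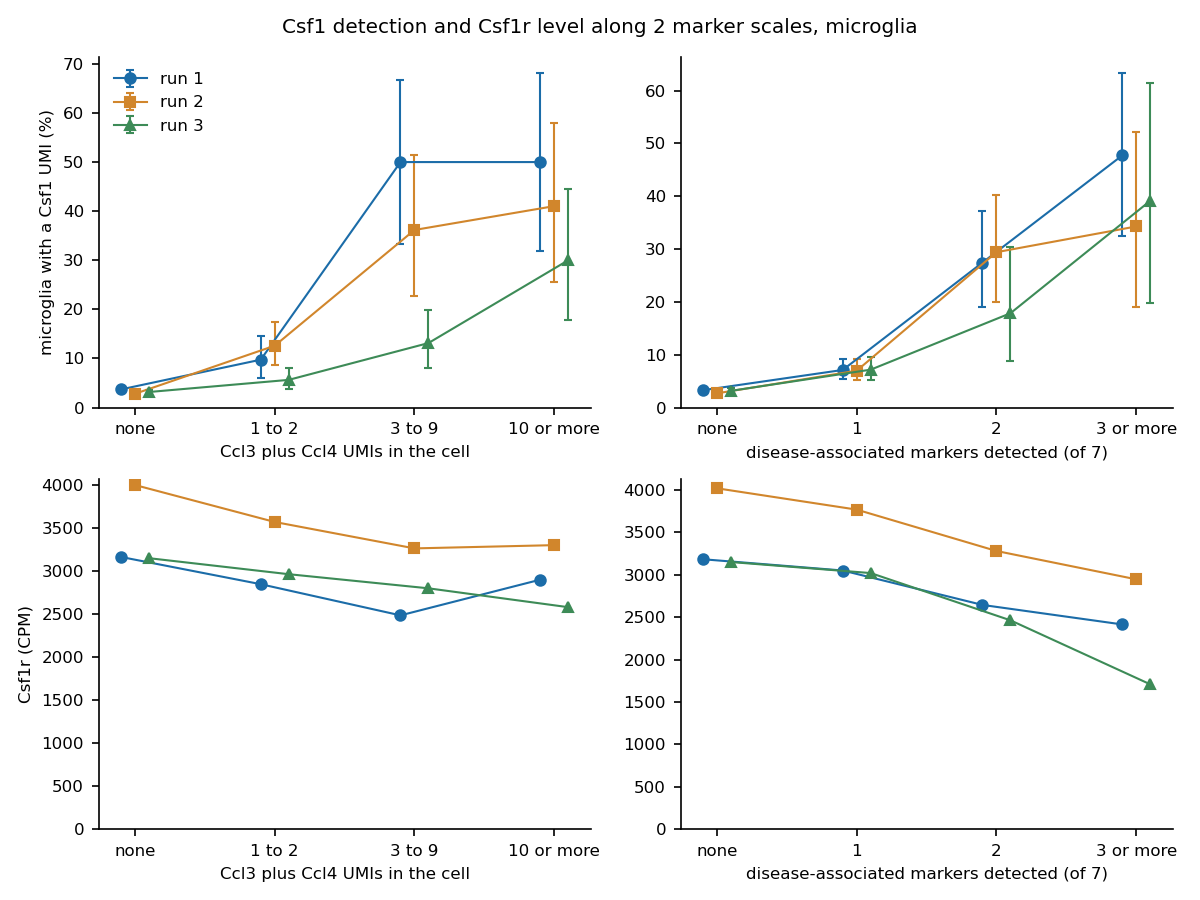
Top, percent of microglia with a Csf1 UMI by the number of Ccl3 and Ccl4 UMIs in the cell (left) or of disease-associated markers detected (right), per run with exact 95% binomial intervals. Bottom, the Csf1r level (CPM) of the same cells: it is 3452 CPM on average with no marker and 2357 CPM with 3 or more. With no Ccl3 or Ccl4 UMI it is 3439 CPM and with 10 or more 2928 CPM.

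The receptor gene Csf1r was detected in nearly every microglial cell and was lower in disease-associated microglia and in border macrophages. In reference microglia it was at 3165, 3989 and 3128 CPM in runs 1, 2 and 3 (3428 ± 487 CPM). In disease-associated microglia it was at 2389, 2947 and 1707 CPM (2348 ± 621 CPM), below every reference run, with a log2 difference of -0.44 ± 0.12 (adjusted p = 0.00455 in edgeR's quasi-likelihood test, 10.9% of genes called as lower). Without the replicate block the value was -0.44 and the adjusted p 0.145. Border macrophages were at 1670, 1973 and 1683 CPM (1775 ± 172 CPM), with a difference of -0.58 ± 0.12 (adjusted p = 9.45e-05, 16.9% of genes called as lower). Both stayed called in each single-run omission, and with library totals alone the border macrophage difference was -0.97.

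Along the marker scale Csf1r went the other way from Csf1: it was 3452 ± 493, 3281 ± 424, 2797 ± 430 and 2357 ± 621 CPM with 0, 1, 2 and 3 or more disease-associated markers, and it was lower at each step within each run. Along the chemokine scale Csf1r was 3439 ± 487 CPM with no Ccl3 or Ccl4 UMI, then 3128 ± 389, 2850 ± 392 and 2928 ± 361 CPM. These last values are for 1 to 2, 3 to 9 and 10 or more UMIs. In each run it was lower with 10 or more than with none. Cells with both marker kinds were at 2378 ± 586 CPM and cells with neither at 3438 ± 486 CPM. Cells with the chemokine kind alone were at 3007 ± 380 CPM and with the disease-associated kind alone at 2735 ± 442 CPM. The levels along the scales were not tested. In the other microglial populations Csf1r did not pass the test. Chemokine-gated cells were at 2815, 3297 and 2662 CPM (log2 -0.10 ± 0.12, adjusted p = 0.691) and interferon-gated cells at 2915, 3404 and 3220 CPM (log2 -0.05 ± 0.12, adjusted p = 0.936). Cycling microglia were at 2481, 3040 and 2826 CPM, below every reference run, with a log2 difference of -0.30 ± 0.12 (adjusted p = 0.0611, where 30.2% of genes were called and 12.1% as lower). That difference passed the threshold in 5 alternatives. Of the populations described by values only, MHC class II cells had 672 CPM (95% exact Poisson interval 583 to 771, counting error only) and 7 monocytes 398 CPM (255 to 592). No Csf1r UMI was seen in 10 T/NK cells, which allows a share of cells with a UMI of up to 30.0%, and 2 of 33 choroid plexus cells (6.06%) had one, at run medians of 1590 to 1822 UMIs per cell.

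The GM-CSF receptor alpha gene Csf2ra was higher in border macrophages and did not pass the test in any microglial population. Its level in border macrophages was 112, 158 and 142 CPM (137 ± 23.5 CPM), above every reference run (73.2, 92.6 and 66.9 CPM). The log2 difference was 1.21 ± 0.21 (adjusted p = 5.41e-06, edgeR's quasi-likelihood test), and 0.70 (adjusted p = 0.0238) with 1 more marker required by each gate. Disease-associated microglia were at 110, 133 and 33.1 CPM, so run 3 lay below and runs 1 and 2 above the reference runs (log2 0.48 ± 0.22, adjusted p = 0.117, but 0.0364 without run 3 and 0.0329 with 2 markers required). Chemokine-gated cells were at 65.8, 136 and 91.3 CPM (log2 0.47 ± 0.25, adjusted p = 0.232). The highest Csf2ra level of any population with over 10 cells was that of the MHC class II cells, with 223, 415 and 261 CPM from 88 UMIs in 39 cells, and 28 of these (71.8%) had a UMI. MHC class II cells and monocytes (216 CPM, interval 115 to 369) thus had more Csf2ra and less Csf1r than reference microglia by these values, which were not tested.

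The beta chain gene Csf2rb differed less. In reference microglia it was at 62.7, 53.5 and 61.9 CPM, and in border macrophages at 74.6, 33.3 and 98.4 CPM, which overlap. The mean levels were close, at 68.8 ± 32.9 CPM in border macrophages and 59.4 ± 5.08 CPM in reference microglia. The fitted border macrophage difference (log2 0.67 ± 0.26, adjusted p = 0.0348 in edgeR's quasi-likelihood test) was lost in 7 alternatives, at 0.30 to 0.68. Single-run omissions were among them (adjusted p = 0.165 without run 1 and 0.520 without run 3). Cycling microglia were at 34.2, 13.2 and 46.6 CPM, below every reference run but not called (log2 -0.82 ± 0.36, adjusted p = 0.0822). It was called without run 3 (-1.06, adjusted p = 0.0468) and with these 2 populations fitted alone (-0.98, adjusted p = 0.0367). Chemokine-gated (42.7 ± 25.8 CPM), interferon-gated (45.8 ± 12.6 CPM) and disease-associated cells (64.8 ± 19.6 CPM) overlapped the reference runs. The copy Csf2rb2 was at 20.8 ± 1.24 CPM in reference microglia.

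Both chains of the GM-CSF receptor were seldom seen in the same microglial cell at a fixed depth. With cells thinned to 2000 UMIs, 100 of 6735, 101 of 6266 and 103 of 5804 microglia held UMIs of Csf2ra and Csf2rb, against 103, 105 and 80.8 expected if detection were independent. The ratio of observed to expected was 0.967, 0.960 and 1.27, so run 3 stood above the other runs.

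The G-CSF receptor gene Csf3r was present throughout microglia and lower in border macrophages and in cycling microglia. Reference microglia were at 198, 171 and 179 CPM (183 ± 13.8 CPM), and 49.8% of the pooled reference cells had a UMI. Border macrophages were at 28.0, 66.6 and 47.4 CPM (47.3 ± 19.3 CPM), a log2 difference of -1.71 ± 0.26 (adjusted p = 2.53e-07 in edgeR's quasi-likelihood test). Cycling microglia were at 113, 52.6 and 93.3 CPM (86.3 ± 30.7 CPM), a difference of -0.91 ± 0.23 (adjusted p = 0.00154). No run of either population reached the lowest reference run. With cells thinned to 2000 UMIs the cycling difference was -0.74 (adjusted p = 0.178). Disease-associated (183 ± 50.4 CPM), interferon-gated (182 ± 38.6 CPM) and chemokine-gated microglia (156 ± 16.7 CPM) overlapped the reference runs, and their fitted differences lay between -0.10 and 0.06. No Csf3r UMI was seen in the 2 neutrophils, which held 2506 UMIs together, so their level could have been up to 1197 CPM.

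**Figure D3:**
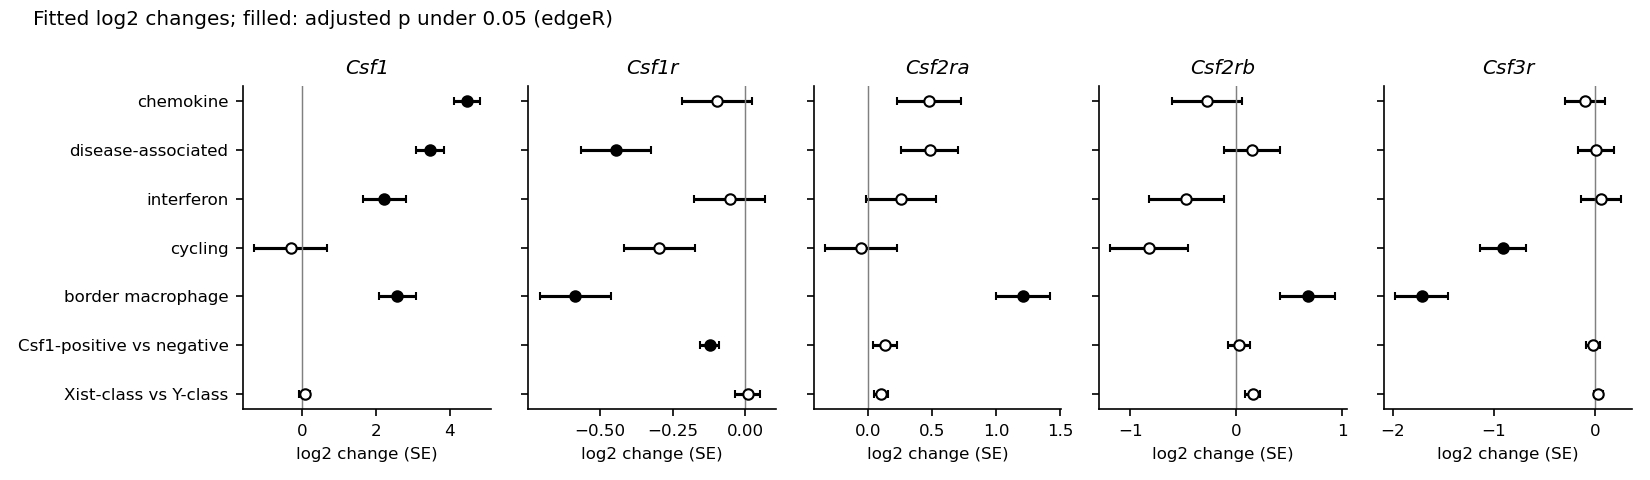
Fitted log2 differences (points) from edgeR's quasi-likelihood test for the 5 genes, against reference microglia in the upper 5 rows. Bars are standard errors derived from the F value of the test. Filled points have an adjusted p under 0.05. Csf1 in border macrophages (2.58) rests on 1 cell of run 3, and Csf1 was not tested between Csf1-positive and Csf1-negative cells.

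Cells positive for both Csf1 and Csf1r were in effect the Csf1-positive cells. Of all kept cells 311, 243 and 234 had a Csf1 UMI in runs 1, 2 and 3, and 311, 243 and 233 of these also had a Csf1r UMI. The exception was a T/NK-gated cell of run 3. Double-positive cells made up 4.45% (95% exact binomial interval 3.98 to 4.96), 3.62% (3.18 to 4.09) and 3.83% (3.36 to 4.35) of cells, 3.97 ± 0.431% over the runs. Independent detection would have given 310, 242 and 233 cells. The ratios of observed to expected were 1.00, 1.00 and 1.00, which follows from Csf1r being seen in 6970 of 6993, 6694 of 6720 and 6055 of 6078 kept cells. Among microglia it was seen in all but 3, 3 and 9, with a median of 14, 14 and 11 Csf1r UMIs per cell. After thinning to 2000 UMIs, 148 of 151, 141 of 142 and 119 of 122 Csf1-positive cells still had Csf1r, and the ratios were 0.985, 0.996 and 0.984. The double-positive share then was 2.13 ± 0.107%, so the share depends on depth. With at least 2 UMIs of each gene it was 0.793 ± 0.227%.

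Genes that accompany Csf1 were compared between the 297, 241 and 229 Csf1-positive and the 6515, 6387 and 5737 Csf1-negative microglia of the runs. Csf1r was slightly lower in Csf1-positive cells: 3138 ± 413 against 3427 ± 487 CPM, lower in 3 of 3 runs with overlapping ranges, a log2 difference of -0.12 ± 0.03 (adjusted p = 0.00412 in edgeR's quasi-likelihood test). Of 11604 genes tested 8.83% were called, 5.32% as higher and 3.52% as lower. Without the replicate block only 50 genes passed and Csf1r did not (adjusted p = 1.00), and it also did not with cells thinned to 2000 UMIs (adjusted p = 0.0756 and 0.123, gated after and before thinning). Csf2ra (log2 0.13 ± 0.09, adjusted p = 0.477), Csf2rb (0.03 ± 0.10, 0.938) and Csf3r (-0.02 ± 0.07, 0.922) did not pass.

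In Csf1-positive microglia 34 genes met the rule for being named (adjusted p under 0.05, log2 of at least 1, at least 20 CPM, same direction in 3 runs), all of them higher. Gate genes were left out of this ranking. The chemokine gene Ccl2 was at 69.1, 203 and 144 CPM in Csf1-positive and at 7.42, 5.60 and 12.9 CPM in Csf1-negative cells (log2 3.95 ± 0.13, adjusted p = 4.49e-92). Gadd45b, a stress-response gene, was at 31.7 ± 10.9 and 1.16 ± 0.735 CPM (log2 4.90 ± 0.31, adjusted p = 2.84e-39). Cd83, an activation marker of antigen-presenting cells, was at 332 ± 93.5 and 90.7 ± 16.1 CPM (log2 1.88 ± 0.06, adjusted p = 6.53e-89). The other genes among the 10 largest changes were Gas2l3 (log2 3.56), Fam20c, a secretory pathway kinase gene (3.32), Nes, the gene of the filament protein nestin (3.04), Chst2 (2.76), the urokinase receptor gene Plaur (2.55), the TWEAK receptor gene Tnfrsf12a (2.31) and Ank, a pyrophosphate transport gene (1.73). All 10 were called as higher in each of the 15 alternatives, including within reference microglia alone.

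Ccl3, Ccl4 and the disease-associated markers define gates and were not tested in the main fit. Ccl4 was at 370, 1067 and 616 CPM in Csf1-positive and at 31.3, 38.2 and 46.7 CPM in Csf1-negative cells. The disease-associated marker Lgals3 was at 43.9, 51.3 and 36.0 against 2.41, 5.82 and 2.69 CPM. Itgax, Lpl and Spp1 were also higher in each run. Csf1-positive cells were deeper (medians of 5348, 3976 and 4125 against 4377, 3419 and 3677 UMIs). They also held Xist and Y-linked UMIs together more often, in 7.07%, 4.56% and 3.06% against 2.85%, 1.58% and 2.75% of cells. Summed endothelial markers were at 657, 881 and 627 CPM in Csf1-positive and 624, 789 and 607 CPM in Csf1-negative cells, higher in each run, and neuronal markers at 0.916 to 11.5 and 3.40 to 10.3 CPM. Oligodendrocyte markers were at 88.9, 104 and 70.0 against 105, 125 and 96.0 CPM, lower in each run, and astrocyte markers at 223 to 337 and 243 to 379 CPM. The endothelial sum does not mark endothelial RNA alone, since it was also high in choroid plexus cells. The part of these markers in the differences was not tested. With Xist and Y-linked double-positive cells removed, 1057 genes were called in place of 1025.

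**Figure D4:**
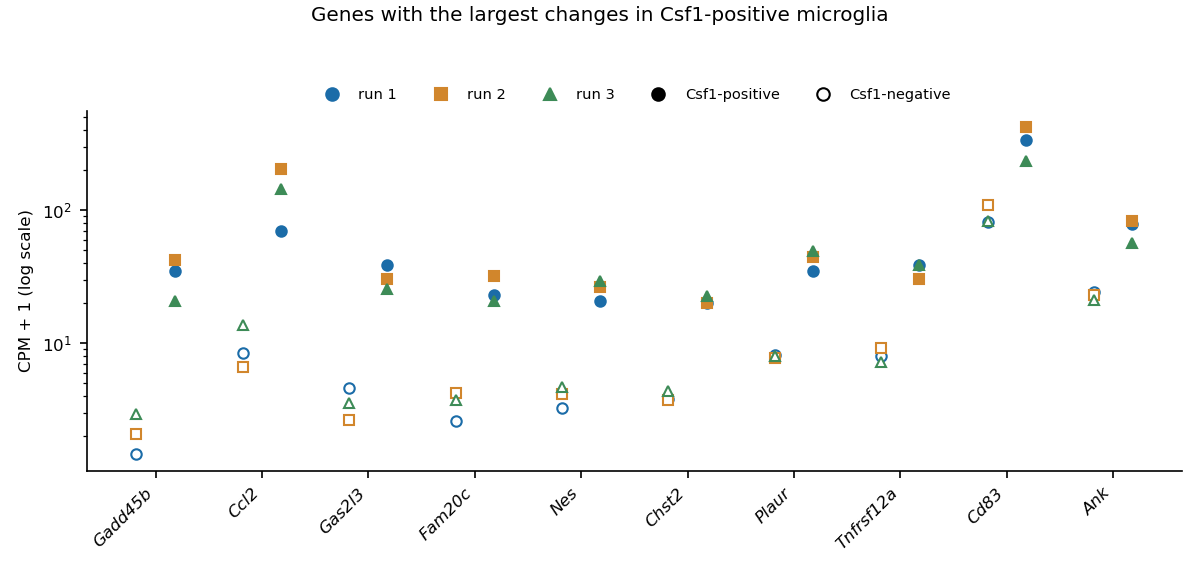
Levels (CPM + 1, log scale) of the 10 named genes in Csf1-positive (filled) and Csf1-negative (open) microglia, one symbol per run. They have the largest called changes under the naming rule, with gate genes left out. For each gene the 3 filled points lie above the 3 open points.

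The wider pathway list held 40 genes: ligands, other receptor chains, transcription factors of the lineage, signalling genes and targets. No UMI of the ligand genes Il34, Csf2, Csf3, Il3 and Il5 was seen in the kept cells of any run, and none of the receptor gene Il5ra. Of these receptors' ligand genes Csf1 alone had counts in the sorted cells, and a count of 0 allows up to 3 UMIs, or 0.0365 CPM over all kept cells. Of 24 listed genes tested between populations, 8 were higher and 0 lower in chemokine-gated microglia in edgeR's quasi-likelihood test (median log2 0.35, all genes -0.02), where 8.79% of all genes were called as higher and 5.06% as lower. With DESeq2 the counts were 7 and 0. At an unadjusted p under 0.05 in edgeR, 12 were higher and 1 lower. The 8 genes called in edgeR were Bcl2 (2.01), Cebpb (1.19), Mcl1 (1.12), Bcl2a1b (0.78), Runx1 (0.67), Ccnd1 (0.65), Pik3r1 (0.51) and Tyrobp (0.48). Bcl2, Mcl1 and Bcl2a1b are anti-apoptotic genes, and Cebpb encodes a myeloid transcription factor. Bcl2 was at 75.8 ± 22.8 against 19.9 ± 4.81 CPM and Cebpb at 616 ± 164 against 291 ± 37.3 CPM.

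In disease-associated microglia 4 of 24 listed genes were higher and 5 lower (median log2 -0.17, all genes -0.02), where 13.3% of all genes were called as higher and 10.9% as lower. DESeq2 gave 4 and 3. Higher were Bcl2a1b (583 ± 94.3 against 247 ± 19.6 CPM), Bcl2, Tyrobp and Adam17, a protease gene whose product releases surface proteins such as the CSF-1 receptor. Lower were Inpp5d (298 ± 87.3 against 545 ± 108 CPM), Fli1, Pik3r1, Stat3 and Jak1. Inpp5d encodes the inositol phosphatase SHIP1. In border macrophages 7 were higher and 6 lower (median log2 0.13, all genes -0.02), where 19.7% and 16.9% of all genes were, and DESeq2 gave 6 and 3. Cebpb was higher at 744 ± 201 CPM. The cyclin gene Ccnd2 was at 91.2 ± 65.3 against 0.495 ± 0.157 CPM. Cycling microglia had 1 higher (Bcl2) and 8 lower, among them Cebpa (83.5 ± 36.1 against 232 ± 40.8 CPM) and Stat3, where 30.2% of all genes were called and 12.1% as lower, and DESeq2 also gave 1 and 8. In interferon-gated microglia 0 of 24 passed in edgeR and 0 in DESeq2, with 1 higher and 2 lower at an unadjusted p under 0.05 in edgeR. Since 3.71% of all genes were called there, a count of 0 is near the background. In Csf1-positive microglia 4 of 33 tested were higher and 0 lower: Myc (29.0 ± 6.94 against 17.2 ± 4.06 CPM), Bcl2a1b, Mcl1 and Tyrobp (median log2 of the list 0.01, all genes -0.02), where 5.32% of all genes were called as higher and 3.52% as lower. DESeq2 also gave 4 and 0, and 10 were higher and 3 lower at an unadjusted p under 0.05 in edgeR.

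The genes most like each member were found by the correlation of log2(CPM + 1), centred per run, over 18 sums (6 populations in 3 runs) among 8202 genes. The sums share libraries and differ in depth, so the values are a description. For Csf1r they were Inpp5d (Pearson r = 0.967), Kctd12 (0.948), P2ry12 (0.948), Crybb1 (0.946) and Lpcat2 (0.942). Gate genes were kept in this ranking. P2ry12 is one of them, and the border macrophage gate required a low share of its UMIs, so its place follows in part from the gates. For Csf3r they included Tanc2 (0.934), Itm2c (0.930), Pbxip1 (0.920) and Edem2 (0.918). For Csf1 the values were lower and led by Plek (0.846), Plekhm2 (0.836), Gnl3 (0.827), Fam207a (0.806) and the cytokine gene Osm (0.796). The Csf1 sums reached 0 CPM in border macrophages and in cycling microglia. They also included 113 CPM in border macrophages of run 3, where a single cell held 29 of the Csf1 UMIs. Csf2ra was most like AB124611 (0.835) and Csf2rb most like Lman2 (0.835).

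Since male and female animals were pooled, reference microglia were classed by their own transcripts as Xist-class or Y-class. Of the 5 genes 0 passed edgeR's quasi-likelihood test or DESeq2 between these classes and 1 (Csf2rb) had an unadjusted p under 0.05, where 0.463% of 11229 genes were called, 0.240% as higher and 0.223% as lower. Csf1 was at 10.8 ± 1.93 in Xist-class and 10.1 ± 1.92 CPM in Y-class cells (log2 0.06 ± 0.15, adjusted p = 0.940), and Csf1r at 3428 ± 504 and 3398 ± 445 CPM (log2 0.01 ± 0.04, adjusted p = 0.972). Csf2rb came nearest, at 63.2 ± 9.60 and 57.7 ± 1.30 CPM (log2 0.15 ± 0.07, adjusted p = 0.466 in edgeR's quasi-likelihood test, and 0.0197 without run 2). Of 33 listed pathway genes Cebpb alone was called, lower in Xist-class cells at 259 ± 29.6 against 321 ± 37.0 CPM (log2 -0.31 ± 0.04, adjusted p = 0.000281).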

How the data were processed

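The deposited tables hold raw UMI counts per gene and barcode. The authors' processing was done with Cell Ranger and Seurat 4.0 against mm10, per the submitters' processing notes, and the count software version was 3.0.2 for run 1 and 3.1.0 for runs 2 and 3, per the file headers. The lowest total per barcode was 500 or 501. The 5 genes, the gates, the pathway list and the tests were chosen with earlier results of these data known. Gates were applied in a fixed order to cells with a low (under 0.15% P2ry12, Tmem119 and Siglech UMIs) or normal microglial share: disease-associated needed 3 of 7 markers (8 were listed and 7 used), chemokine-gated 10 UMIs of Ccl3 and Ccl4, interferon-gated 4 of 8 markers. Cells meeting a non-microglial rule with a microglial share at or above that level (112 cells) entered no comparison. No doublet caller was run, and cells with Xist and Y-linked UMIs together were removed as an alternative.

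For each run, the UMIs of a population's cells were added up, and the sums were compared with edgeR 4.0.16 (quasi-likelihood test, TMM scaling, filterByExpr, run as block, Benjamini-Hochberg over all genes tested, threshold 0.05) in R 4.3.3. Genes of any gate were left out of the main tests. They were tested as well in an alternative of the Csf1-positive and Xist-class comparisons. The 6 populations with at least 10 cells per run were fitted together, and 4822 genes were tested. Both sums of a run come from 1 library, and same-run sums departed together from their group means (correlation 0.232 to 0.455). In the simulated counts of the population comparisons (4632 genes tested), recovery of genes changed by a log2 of 1 differed. It was 78.3% for disease-associated, 68.7% for chemokine-gated, 65.9% for border macrophage, 62.2% for cycling and 59.2% for interferon-gated cells. Genes changed by a log2 of 2 were recovered in 93.2% to 100%. Of the genes called, 5.7% for disease-associated, 4.9% for chemokine-gated, 0.8% for border macrophage, 6.3% for cycling and 5.2% for interferon-gated cells had not been changed. Every simulated gene of a fit was given the same spread beyond counting error, so differences in spread between genes were not simulated. In the Csf1-positive comparison (11644 genes) 98% and 100% were recovered. Only genes at 20 CPM or more in the cells compared against were changed. Csf1 was at 10.8 CPM in reference microglia, so recovery at its level was not simulated. In Csf1-positive cells, named genes are the 10 largest changes per direction under the rule given in the text, without ribosomal, mt-, Gm, Rik and sex-linked genes. Thinning drew 2000 UMIs per cell at random and left shallower cells out. The quasi-likelihood test reports no standard error. The SE printed with its log2 differences is the absolute difference over the square root of the F value. Intervals and floors cover counting error only. Alternatives were DESeq2 1.42.0, its size factors, library totals alone, no low-count filter, no block, single runs omitted, stricter cells (2000 UMIs, 5% mitochondrial), thinning and changed gates. Gene positions are from GENCODE M21. The values of 1 gene are not reported here.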

Additional observations from a re-analysis of the deposited data

How the results depend on the processing

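Of 459 log2 differences of the 5 genes under alternatives, 404 kept direction and side of the threshold. The cause of a change was not tested, except that thinning and run omission leave fewer UMIs or runs. Few Csf1 UMIs were counted in interferon-gated (21) and cycling cells (4), which limits those values. Thinning before gating could not be fitted for disease-associated, interferon-gated and cycling cells, nor 1 more marker for disease-associated and interferon-gated cells, since a run then held under 10 cells.

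For Csf1, the border macrophage difference was 2.19 with DESeq2 (adjusted p = 0.0546), -0.95 with stricter cells, -0.70 without the cell with most Csf1 and -1.49 to 3.12 with a run omitted. The interferon-gated difference was 2.08 with DESeq2, 2.18 without the replicate block and 1.498 to 2.45 with a run omitted. The Xist-class difference was -0.16 to 0.24 with a run omitted. For Csf1r, the Csf1-positive difference was -0.13 without the replicate block and -0.12 with thinning before gating or with gates kept. The disease-associated difference was -0.44 without the replicate block. The cycling difference was called with DESeq2 (-0.27), no low-count filter (-0.52), 1 more marker (-0.35), 2 disease-associated markers (-0.34) and without run 3 (-0.44 to -0.24 with a run omitted). It was near 0 and changed sign in interferon-gated cells (-0.16 to 0.016 with a run omitted) and in Xist-class cells (-0.0041 thinned, -0.0003 to 0.024 with a run omitted).

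Csf2ra, Csf2rb and Csf3r changed sign where they were not called. Csf2ra was -0.38 to 0.091 in cycling cells with a run omitted. In Csf1-positive cells Csf2rb was -0.10 with at least 2 Csf1 UMIs, -0.0019 without Xist and Y double-positive cells, -0.018 with no low-count filter and -0.059 to 0.072 with a run omitted, and in disease-associated cells -0.17 to 0.53 with a run omitted. In Csf1-positive cells Csf3r was 0.029 within reference microglia, 0.0024 with stricter cells and -0.070 to 0.029 with a run omitted. It was -0.024 in thinned Xist-class cells and 0.0005 in thinned chemokine-gated cells. In disease-associated cells it was -0.15 with 2 markers, -0.073 fitted alone, -0.015 without Xist and Y double-positive cells, -0.10 with library totals, -0.092 with no filter, -0.41 thinned and -0.22 to 0.24 with a run omitted. In interferon-gated cells it was -0.024 fitted alone, -0.0024 with library totals, -0.10 with no filter and -0.11 to 0.13 with a run omitted.

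Counts of called genes moved by over 1.5 times as follows. Without the replicate block they were 569 of 1163 for disease-associated, 240 of 668 for chemokine-gated, 931 of 1454 for cycling and 50 of 1025 for Csf1-positive cells, and 0 of 52 for Xist-class cells (edgeR, with 68 at an unadjusted p under 0.05). With gates kept and cells thinned they were 503, 291, 75 for interferon-gated (179 at full depth), 372, 889 for border macrophages (1768) and 188. With thinning before gating they were 172 for chemokine-gated, 653 for border macrophages and 194 for Csf1-positive cells. DESeq2 called 467 for Csf1-positive and 11 for Xist-class cells, no filter gave 123 for Xist-class cells, and reference microglia alone gave 502. With a run omitted the ranges were 727 to 967, 296 to 574, 108 to 161, 744 to 1437, 521 to 802 and 34 to 79 for disease-associated, chemokine-gated, interferon-gated, cycling, Csf1-positive and Xist-class cells. The double-positive share was 2.13% thinned and 0.793% with at least 2 UMIs of each gene. The block changed no call of a member other than those named here and Csf2rb in border macrophages (0.68, adjusted p = 0.0988 without it).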
